A study of Mus musculus with 4 samples.

Results

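Transcripts of 10 genes of the T cell antigen receptor complex and its signalling partners were followed in cells that had been sorted as negative for CD3e. The 10 genes were Cd3e, Cd3d, Cd3g, Trac, Trbc2, Tcrg-C, Cd5, Cd6, Lat and Lck, taken by symbol from the 37310 genes of the deposited tables, and each symbol had a single row. The cells were natural killer (NK) cells taken from bone marrow, innate cytotoxic lymphocytes, and were gated as positive for NK1.1 and CD49b and negative for CD3e. The 4 libraries fall into 2 groups of 2 biological replicates, from littermate controls (Ctrl) and from mice of the genotype Gabpb1l-/-Gabpb2-/- (dKO), all of strain C57BL/6 and aged 6 to 8 weeks. The dKO genotype removes Gabpb2 and the long form of Gabpb1, partner subunits with which the Ets-family protein Gabpa forms the GABP tetramer. The labels give neither a Cre driver, nor the alleles carried by the controls, nor the number of animals per library, so the genotype is that of the whole mouse as far as they say. The 10 genes were chosen by their Ctrl against dKO levels in these same libraries. Their own differences are therefore given as a description, without a p-value.

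Gene counts summed to between 30233870 and 34724516 per library, and 15921 to 19450 genes had at least 1 count, with both Ctrl libraries below both dKO libraries in that number. Gabpb2 had 1244 and 1009 counts in the Ctrl libraries against 85 and 86 in the dKO libraries, while a count over the whole Gabpb1 gene cannot check its long form. Xist, the X-inactivation RNA, had 6066 and 6430 counts in Ctrl and 2 and 9 in dKO, and the Y-linked gene Ddx3y had 0 counts in both Ctrl libraries and 8933 and 6757 in dKO. Genotype therefore cannot be told apart from this sex marker difference in any value given here. Transcripts that define NK cells were abundant in all 4 libraries, with Ncr1, which encodes the receptor NKp46, at 1795, 1422, 1391 and 1414 CPM (counts scaled to a common library size) in Ctrl 1, Ctrl 2, dKO 1 and dKO 2, the order used throughout.

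In T cells the antigen receptor is a pair of variable chains, alpha with beta or gamma with delta, that bind antigen but cannot signal. The pair is carried by the CD3 epsilon, delta and gamma chains and by the zeta chain encoded by Cd247, whose cytoplasmic tyrosine motifs (ITAMs) are phosphorylated by the kinase Lck and then recruit the kinase Zap70, which phosphorylates the adaptor Lat. CD5 and CD6 are related surface receptors that temper this signal. NK cells lack a rearranged antigen receptor, yet they use the zeta chain, Zap70, Lat and Lck downstream of their own activating receptors, and transcripts of CD3 chains and of unrearranged receptor loci have long been known in the NK lineage.

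The 10 genes split by size of difference. Cd3e, Cd3d, Cd3g, Trac, Tcrg-C, Cd5 and Cd6 were 2.80- to 6.92-fold lower in dKO, whereas Trbc2, Lat and Lck differed by at most 1.29-fold. All 10 log2 fold changes were negative, with a median of -1.70 against 0.01 over the 13904 genes tested. In 9 of the 10 both dKO libraries lay below both Ctrl libraries, which held for 19.9% of all genes tested. A log2 fold change of -1 or lower was seen in 7 of the 10 and in 4.84% of all genes tested. In edgeR 3 of the 10 (Cd3e, Trac and Tcrg-C) were lower at an adjusted p under 0.05 and none was higher, against 0.295% and 0.316% of all genes. In DESeq2 7 of the 10 were lower, against 1.43%. In edgeR 7 were lower with no filter on low counts (1.30% of all genes) and 6 with a replicate block (0.374%). Without dKO replicate 2 they numbered 7 (0.366%). In this and the other fits that leave out a library, the lone library of its group is assumed to vary like the pair of the other group. With a stricter filter (0.747%), limma-voom (0.309%) or RSEM expected counts (0.469%) 5 of them were lower. Since the genes were picked with this contrast in view, nothing is read from these counts. A lower level in sorted bulk RNA can come from fewer cells that carry a transcript or from less of it per cell, and these cannot be told apart here.

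**Figure D1:**
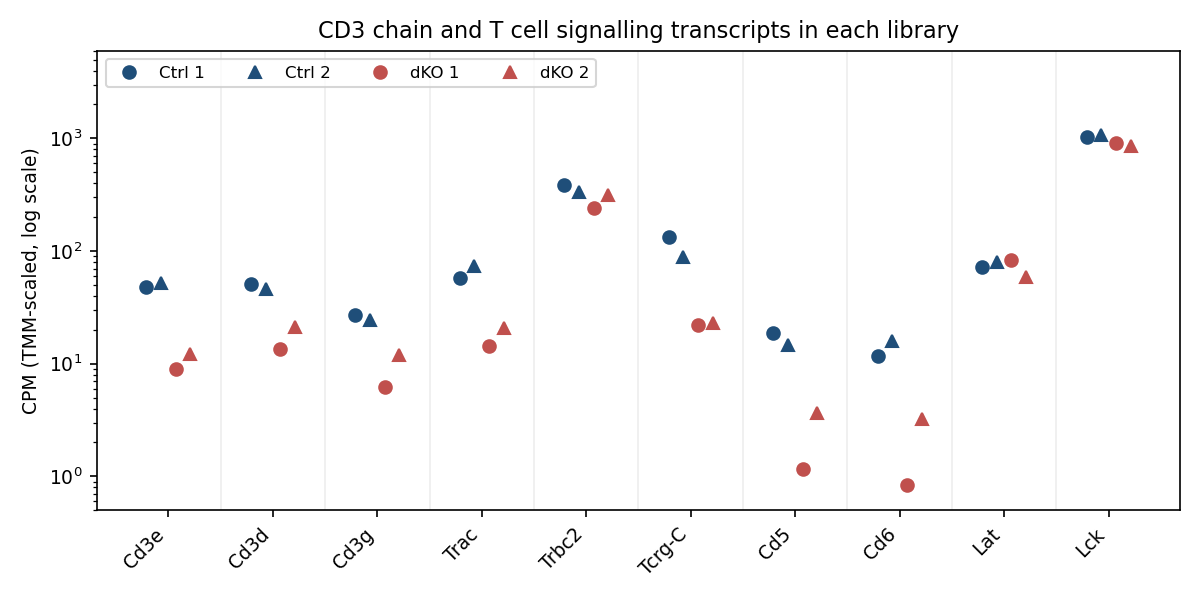
CPM (TMM-scaled, log axis) of the 10 genes, with 1 point per library, Ctrl in blue and dKO in red, circles for replicate 1 and triangles for replicate 2. Red points lie below blue points for every gene except Lat, and the gap is narrow for Trbc2 and Lck.

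The CD3 chains were the first group. Cd3e, which encodes the epsilon chain that the sort used to gate out T cells, was at 47.5 and 52.5 CPM in Ctrl, against 8.90 and 12.2 in dKO, from 1617, 1742, 286 and 370 counts. The means were 49.99 ± 3.53 CPM in Ctrl, against 10.6 ± 2.37 CPM in dKO (SD, n = 2), a 4.73-fold difference (log2 fold change of -2.24 with standard error (SE) 0.24). The transcript was thus read in every library of cells that had been selected for lacking the surface protein. Cd3d, the delta chain gene, was at 51.5 and 45.9 CPM in Ctrl, against 13.5 and 21.2 in dKO (log2 fold change of -1.49 with SE 0.26). Cd3g, the gamma chain gene, was at 27.02 and 24.6 CPM in Ctrl, against 6.22 and 12.01 in dKO (log2 fold change of -1.50 with SE 0.33). For all 3 chains the Ctrl libraries were close to each other and dKO 1 was the lowest library. On the length-corrected TPM scale the 3 chains summed to 183 and 186 TPM in Ctrl and to 45.9 and 67.3 TPM in dKO. Cd3e stood at 0.825 and 1.03 times the TPM of Cd3d in Ctrl and at 0.595 and 0.509 times in dKO. The ratio of Cd3g to Cd3d was 0.730 and 0.743 in Ctrl and 0.670 and 0.743 in dKO. Relative to the delta chain, the epsilon chain was thus lower in both dKO libraries than in either Ctrl library, and the gamma chain was lower in dKO 1 and level with Ctrl in dKO 2.

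The 3 chain genes are neighbours on chromosome 9 (GRCm38, GENCODE M21), with Cd3g at chr9:44969572-44980431 on the minus strand, Cd3d at chr9:44981786-44987339 on the plus strand and Cd3e at chr9:44998740-45009627 on the minus strand. The start sites of Cd3g and Cd3d lie 1.36 kb apart and point away from each other, and the whole cluster spans 40.1 kb. Promoter windows of 300 bases (250 before to 50 after a RefSeq start site, GRCm38.p6) were found for 6 of the 10 genes. They are shown for the CD3 chains and Cd5, which were lower in dKO, and for Lat, which was not, because an Ets factor such as GABP reads the letters GGAA. Capitals mark GGAA or its complement TTCC, and each window is written along the strand of its gene.
Cd3e, chr9:45009562-45009861, minus strand: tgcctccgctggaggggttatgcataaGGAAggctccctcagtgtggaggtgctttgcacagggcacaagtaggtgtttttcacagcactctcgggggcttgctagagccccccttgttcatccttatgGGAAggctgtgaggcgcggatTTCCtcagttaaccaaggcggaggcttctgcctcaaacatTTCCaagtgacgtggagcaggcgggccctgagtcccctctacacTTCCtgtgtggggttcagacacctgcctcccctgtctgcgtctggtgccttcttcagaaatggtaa
Cd3d, chr9:44981536-44981835, plus strand: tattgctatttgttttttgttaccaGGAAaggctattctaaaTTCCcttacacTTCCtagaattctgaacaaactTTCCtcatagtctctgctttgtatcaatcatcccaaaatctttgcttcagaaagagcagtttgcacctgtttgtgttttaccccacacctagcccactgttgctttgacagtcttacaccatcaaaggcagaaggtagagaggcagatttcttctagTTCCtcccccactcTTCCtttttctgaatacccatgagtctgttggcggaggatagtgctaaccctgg
Cd3g, chr9:44980382-44980681, minus strand: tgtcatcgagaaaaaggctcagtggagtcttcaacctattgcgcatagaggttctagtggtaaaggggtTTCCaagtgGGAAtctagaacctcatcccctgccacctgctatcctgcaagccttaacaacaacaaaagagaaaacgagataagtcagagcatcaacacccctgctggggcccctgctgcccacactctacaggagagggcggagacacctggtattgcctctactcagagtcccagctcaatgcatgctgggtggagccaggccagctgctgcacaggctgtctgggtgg
Cd5, chr19:10738925-10739224, minus strand: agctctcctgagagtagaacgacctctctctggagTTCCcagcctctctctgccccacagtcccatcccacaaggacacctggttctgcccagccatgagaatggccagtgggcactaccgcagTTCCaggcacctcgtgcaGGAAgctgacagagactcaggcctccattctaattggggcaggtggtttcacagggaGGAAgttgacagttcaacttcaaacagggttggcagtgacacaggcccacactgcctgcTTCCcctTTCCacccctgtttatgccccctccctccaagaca
Lat, chr7:126369519-126369818, minus strand: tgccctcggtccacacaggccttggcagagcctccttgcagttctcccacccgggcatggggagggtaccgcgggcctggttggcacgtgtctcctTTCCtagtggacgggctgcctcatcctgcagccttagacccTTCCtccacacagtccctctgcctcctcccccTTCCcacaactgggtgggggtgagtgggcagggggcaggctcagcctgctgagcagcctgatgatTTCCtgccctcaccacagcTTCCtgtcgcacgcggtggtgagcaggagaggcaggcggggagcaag

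The core GGAA, searched on both strands, stood 5 times in the Cd3e window, 6 times in Cd3d, 2 times in Cd3g, 6 times in Cd5 and 5 times in Lat. The Lck windows held it 4 times and 7 times. The median over the 32851 windows of the table was 3, and 96.0% of them hold it at least 1 time. The longer letters CCGGAAG (held by 8.86% of all windows) and CCGGAAGT (3.89%, always also a CCGGAAG match), which GABP prefers, were in none of the 7 windows of these genes. An E-box, CAGCTG, was in the Cd3g window (16.3% of all windows) and the Runx letters TGTGGT were in the Lat window and in 1 Lck window (16.8%). These are matches of letters in short windows and not measured binding.

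Genes around the CD3 cluster were set beside it. Among 13 tested genes within 250 kb, a window chosen after the values were seen, the median log2 fold change was -0.14. Of the 13, 8 had negative values, and the range was -1.71 to 1.11. The highest was Mpzl3, 45.6 kb from Cd3e, at 10.5 CPM in Ctrl, against 22.6 in dKO (edgeR adjusted p = 0.209). Ube4a, a ubiquitin ligase gene 3.97 kb from Cd3g, was at 100.8 CPM in Ctrl, against 82.5 in dKO (log2 fold change of -0.29 with SE 0.16, edgeR adjusted p = 0.593). The share called in either direction was 0.611% of all genes, and 1 of these 13 was called, Amica1 (named Jaml in GENCODE M21), which encodes an adhesion receptor and lies 69.6 kb from Cd3e. It fell from 87.0 and 84.1 CPM in Ctrl to 25.9 and 26.3 in dKO (log2 fold change of -1.71 with SE 0.18, edgeR adjusted p = 0.00721).

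**Figure D2:**
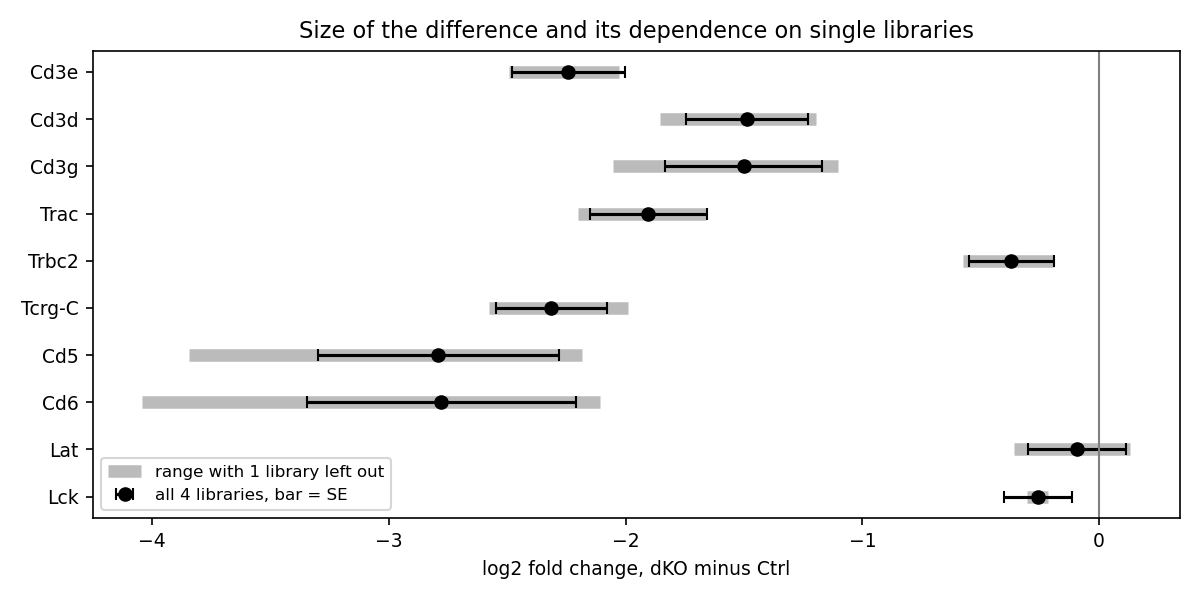
Log2 fold change, dKO minus Ctrl, of the 10 genes with all 4 libraries (points, bars are SE) and the range of the value when each library is left out in turn (grey). Cd5 and Cd6 have the widest ranges, from -3.84 to -2.18 and from -4.04 to -2.11, and Lat is the gene whose range includes 0.

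The constant regions of the receptor chains came next, and they differed by locus. Trac, the alpha constant region on chromosome 14 (54220521 to 54224206), was at 58.2 and 73.2 CPM in Ctrl, against 14.3 and 20.8 in dKO (log2 fold change of -1.90 with SE 0.25). Tcrg-C, a gamma constant region on chromosome 13 (19344558 to 19352756), was at 134 and 89.1 CPM in Ctrl, against 22.03 and 22.8 in dKO (log2 fold change of -2.31 with SE 0.23). Its Ctrl libraries were the more uneven pair and its dKO libraries nearly equal. Trbc2, a beta constant region on chromosome 6 (41546730 to 41548352), was at 383 and 331 CPM in Ctrl, against 240 and 312 in dKO (log2 fold change of -0.37 with SE 0.18). The highest dKO value of Trbc2, 312 CPM, was thus close to its lowest Ctrl value, 331 CPM, which was not so for the alpha and gamma regions.

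The other beta constant region, Trbc1, lies 6.85 kb before Trbc2 and is almost the same in sequence, so reads may not be separable between them. Trbc1 was at 356, 317, 487 and 298 CPM, and its groups overlapped (log2 fold change of 0.22 with SE 0.23, edgeR adjusted p = 0.817). The sum of both beta regions was 739, 649, 727 and 610 CPM, in which the groups overlap too. Trbc2 made up 51.8% and 51.1% of the pair's counts in Ctrl, 33.0% in dKO 1 and 51.2% in dKO 2, so dKO 1 alone carried the shift towards Trbc1. In the RSEM expected counts these shares were 47.2%, 46.03%, 24.6% and 43.8%.

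The gamma locus holds several constant regions. By Ensembl identifier, Tcrg-C corresponds to the region that GENCODE M21 calls Tcrg-C4, and the files name 3 further gamma constant regions Gm17004 (Tcrg-C1), Gm17356 (Tcrg-C3) and Gm16603 (Tcrg-C2). They were looked up after the values were seen. Gm16603 fell from 34.5 and 35.2 CPM in Ctrl to 2.93 and 5.10 in dKO, an 8.69-fold difference (log2 fold change of -3.12 with SE 0.31, edgeR adjusted p = 0.00652). Gm17004 was at 9.02 and 7.14 CPM in Ctrl, against 0.809 and 1.92 in dKO (log2 fold change of -2.57 with SE 0.49, adjusted p = 0.0779), and the value was 0.0475 without Ctrl replicate 2 and 0.0375 without dKO replicate 2, where the other group alone supplies the spread. Gm17356 had 15, 4, 0 and 5 counts and was not tested. Close copies in this locus may share reads. Stard3nl, the gene that follows Tcrg-C at a distance of 4.92 kb, was at 107 CPM in Ctrl, against 92.9 in dKO (log2 fold change of -0.21 with SE 0.18, adjusted p = 0.771).

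Variable and joining segments were summed by locus. Classes were formed after the values were seen, from the gene types of GENCODE M21, and their summed levels are a description. The 20 beta variable segments together had 233 and 335 counts in Ctrl and 55 and 87 in dKO, or 6.84, 10.1, 1.71 and 2.88 CPM. The 7 gamma variable segments summed to 5.05 and 4.82 CPM in Ctrl and to 1.24 and 1.26 CPM in dKO. Both classes were lower in each dKO library (3.69-fold and 3.95-fold on the means). The 34 alpha variable segments were scarce everywhere, at 1.97, 1.39, 1.31 and 0.960 CPM. The 5 delta variable segments (21.5, 25.2, 22.3 and 22.9 CPM) did not separate the groups. Alpha joining segments were lower in both dKO libraries (7.72 and 12.6 CPM in Ctrl, 5.88 and 7.28 in dKO). Delta joining segments went the other way (9.78 and 9.76 CPM in Ctrl, 15.7 and 11.9 in dKO). Beta joining segments were far more abundant than beta variable segments, at 269 and 284 CPM in Ctrl, against 459 and 289 in dKO, and the highest library was dKO 1. Beta joining and constant transcripts were therefore plentiful in cells with few beta variable reads. Of the summed beta classes only the variable reads were lower in both dKO libraries than in both Ctrl libraries. Trbc2 taken alone was lower in both too (383 and 331 CPM in Ctrl, against 240 and 312 in dKO).

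**Figure D3:**
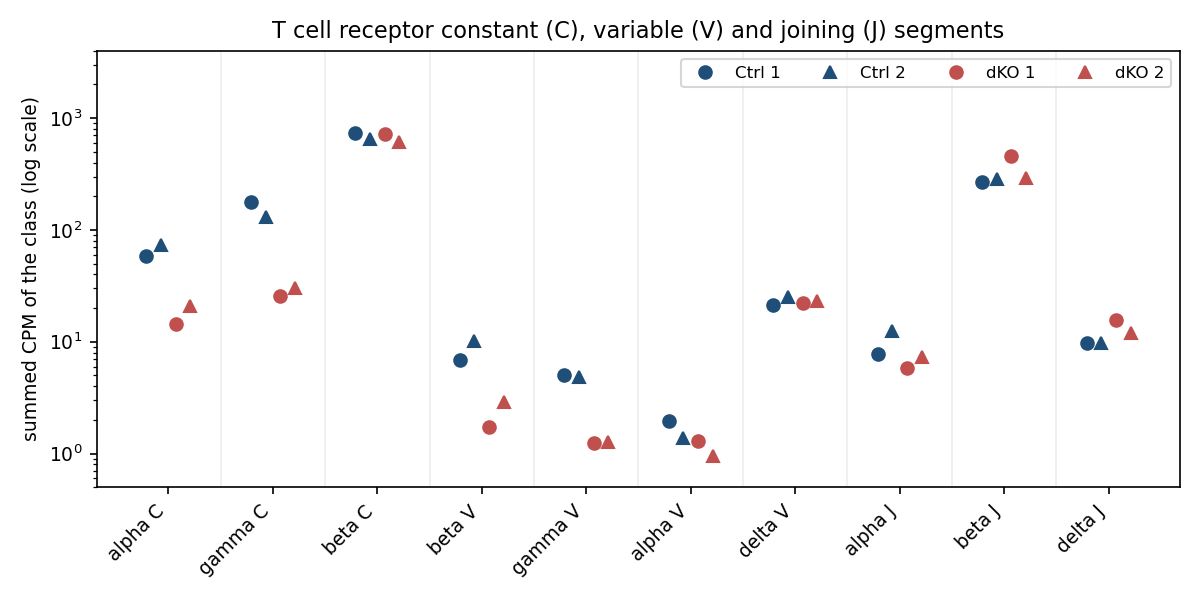
Summed CPM (log axis) of T cell receptor constant (C), variable (V) and joining (J) segments by locus, with 1 point per library, Ctrl in blue and dKO in red, circles for replicate 1 and triangles for replicate 2. Alpha C, gamma C, beta V and gamma V are lower in both dKO libraries by 3.69-fold or more on the means, and beta C and delta V overlap between the groups.

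Of the list of further receptor genes, segments and associated chains, 108 were in the files, 39 of them with 0 counts in all libraries, and 30 were tested. No gene of this list was called in edgeR (3 higher and 9 lower at an unadjusted p under 0.05), none in limma-voom, and Tcrg-V2 was called in DESeq2. Their median log2 fold change was -0.16. Tcrg-V2, a gamma variable segment, was at 2.61 and 2.38 CPM in Ctrl, against 0.373 and 0.496 in dKO (log2 fold change of -2.51 with SE 0.63, edgeR adjusted p = 0.175). Trbv14 was at 0.646 and 1.24 CPM in Ctrl, against 0.0311 and 0.0331 in dKO (adjusted p = 0.202), which in dKO is 1 count per library. The zeta chain gene Cd247, shared with NK receptors, was at 219 and 231 CPM in Ctrl, against 172 and 183 in dKO (log2 fold change of -0.34 with SE 0.15, adjusted p = 0.462). Per TPM, Cd247 was 6.98 and 6.73 times as abundant as Cd3e in Ctrl and 30.1 and 21.6 times in dKO.

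Cd5 and Cd6, the inhibitory co-receptors, had the largest differences and the lowest counts. They lie 50.3 kb apart on chromosome 19, Cd5 from 10717116 to 10739002 and Cd6 from 10789341 to 10830058, both on the minus strand. Cd5 was at 18.6 and 14.6 CPM in Ctrl, against 1.15 and 3.64 in dKO, from 632, 483, 37 and 110 counts (log2 fold change of -2.79 with SE 0.51). Cd6 was at 11.8 and 16.0 CPM in Ctrl, against 0.840 and 3.21 in dKO, from 401, 530, 27 and 97 counts (log2 fold change of -2.78 with SE 0.57). In both genes dKO 1 was over 3 times lower than dKO 2, so the size of the fold rests on which dKO library is read. Without dKO replicate 2 the log2 fold changes were -3.84 and -4.04, and without dKO replicate 1 they were -2.18 and -2.11. The 19 tested genes within 250 kb of the pair had a median log2 fold change of 0.00. The nearest of them, A430093F15Rik, lies between the pair, 1.95 kb from Cd5 and 3.30 kb from Cd6. It averaged 2.87 CPM in Ctrl, against 0.424 in dKO (log2 fold change of -2.75 with SE 0.73, edgeR adjusted p = 0.209).

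Lat and Lck, which act below the receptor in T cells and NK cells alike, were hardly different. Lck (chromosome 4, 129548344 to 129573641) was at 1032 and 1082 CPM in Ctrl, against 910 and 856 in dKO (log2 fold change of -0.26 with SE 0.14). Its groups did not overlap, but the fold was only 1.20. Lat (chromosome 7, 126363824 to 126369570) was at 72.2 and 79.2 CPM in Ctrl, against 83.1 and 58.9 in dKO (log2 fold change of -0.09 with SE 0.21), and its Ctrl values lay between the dKO values. Per TPM, Lck was 16.6 and 15.7 times as abundant as Cd3e in Ctrl and 88.1 and 53.3 times in dKO.

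On the TPM scale, which corrects for transcript length, the order of levels in Ctrl was Trbc2 (1996 ± 41.1 TPM, SD, n = 2, as for all values here), Lck (1033 ± 74.8), Trac (228 ± 40.3), Lat (108 ± 12.8), Tcrg-C (104 ± 30.4), Cd3d (69.4 ± 3.24), Cd3e (64.2 ± 7.17), Cd3g (51.1 ± 1.74), Cd5 (12.6 ± 1.70) and Cd6 (8.61 ± 1.80). Lat and Tcrg-C overlapped, as did Cd3d and Cd3e, and the other neighbours in this order did not. In dKO the order began with Trbc2 (1393 ± 381 TPM), Lck (935 ± 177), Lat (99.5 ± 27.6) and Trac (56.8 ± 11.2). Cd3d (25.1 ± 6.82), Tcrg-C (22.3 ± 3.92), Cd3g (17.9 ± 6.10) and Cd3e (13.6 ± 2.23) followed, each overlapping the next, and Cd5 (1.87 ± 1.20) and Cd6 (1.41 ± 1.12) overlapped at the end. Cd3e thus stood above Cd3g in Ctrl and below it in dKO, where the 2 overlapped. The level of Trac and Tcrg-C on this scale is uncertain, because the count table held 7.65 to 9.79 counts of Trac and 8.63 to 9.72 counts of Tcrg-C for each RSEM expected count. Over all genes with more than 50 expected counts the median was 2.05 to 2.07, and for the CD3 chains the ratio was 1.98 to 2.14.

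Other genes of the signalling pathway were read from lists. Of 46 tested genes of proximal receptor signalling none was called in edgeR (4 higher and 4 lower at an unadjusted p under 0.05), none in limma-voom, and 2 in DESeq2, with a median log2 fold change of -0.11. Malt1, which links the receptor to NF-kB, was at 70.9 and 61.2 CPM in Ctrl, against 120 and 112 in dKO (log2 fold change of 0.81 with SE 0.17, edgeR adjusted p = 0.106, DESeq2 adjusted p = 0.00726). Themis, a regulator of receptor signalling in developing T cells, was at 3.47 and 1.54 CPM in Ctrl, against 0 and 0.298 in dKO, where the 0 allows up to 0.0934 CPM (3 counts) (edgeR adjusted p = 0.263, DESeq2 adjusted p = 0.0104). Without dKO replicate 2, where the 0 of dKO 1 stands alone and the spread comes from the Ctrl pair, the edgeR adjusted p was 0.0482. Zap70 was at 306 and 292 CPM in Ctrl, against 228 and 221 in dKO (log2 fold change of -0.41 with SE 0.14, adjusted p = 0.353). Malt1 and Themis were the 2 genes with the smallest p and went in opposite directions.

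Co-receptors and costimulatory receptors held several low values in dKO. None of 25 was called in edgeR (2 higher and 7 lower at an unadjusted p under 0.05) or in limma-voom, and the median log2 fold change was -0.19, but DESeq2 called 5, all lower (Cd8a, Lag3, Pdcd1, Btla and Il7r), against 1.43% of all genes. Lag3, an inhibitory receptor that binds MHC class II, was at 23.2 and 29.7 CPM in Ctrl, against 5.07 and 10.4 in dKO (log2 fold change of -1.77 with SE 0.36, edgeR adjusted p = 0.0994). Without dKO replicate 2, with the spread from the Ctrl pair, the edgeR adjusted p was 0.0212. Btla, an inhibitory receptor for HVEM, was at 8.37 and 13.7 CPM in Ctrl, against 3.52 and 3.87 in dKO (log2 fold change of -1.58 with SE 0.36, adjusted p = 0.135).

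None of 26 tested T lineage transcription factors was called in edgeR (2 higher and 5 lower at an unadjusted p under 0.05), limma-voom or DESeq2, and their median log2 fold change was 0.02. Egr1, an early response factor, was at 106 and 84.7 CPM in Ctrl, against 63.8 and 54.6 in dKO (log2 fold change of -0.68 with SE 0.19, edgeR adjusted p = 0.222). Hes1, a Notch target, was at 3.76 and 1.87 CPM in Ctrl, against 7.13 and 8.07 in dKO (log2 fold change of 1.43 with SE 0.42, adjusted p = 0.261). Of the 5 ITAM adaptors and their partners listed for NK receptors, 0 were called in edgeR (0 higher and 1 lower, Cd247, at an unadjusted p under 0.05), limma-voom or DESeq2. Hcst, which encodes the adaptor DAP10, was at 32.0 and 28.6 CPM in Ctrl, against 37.2 and 42.2 in dKO (log2 fold change of 0.39 with SE 0.20, adjusted p = 0.560).

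**Figure D4:**
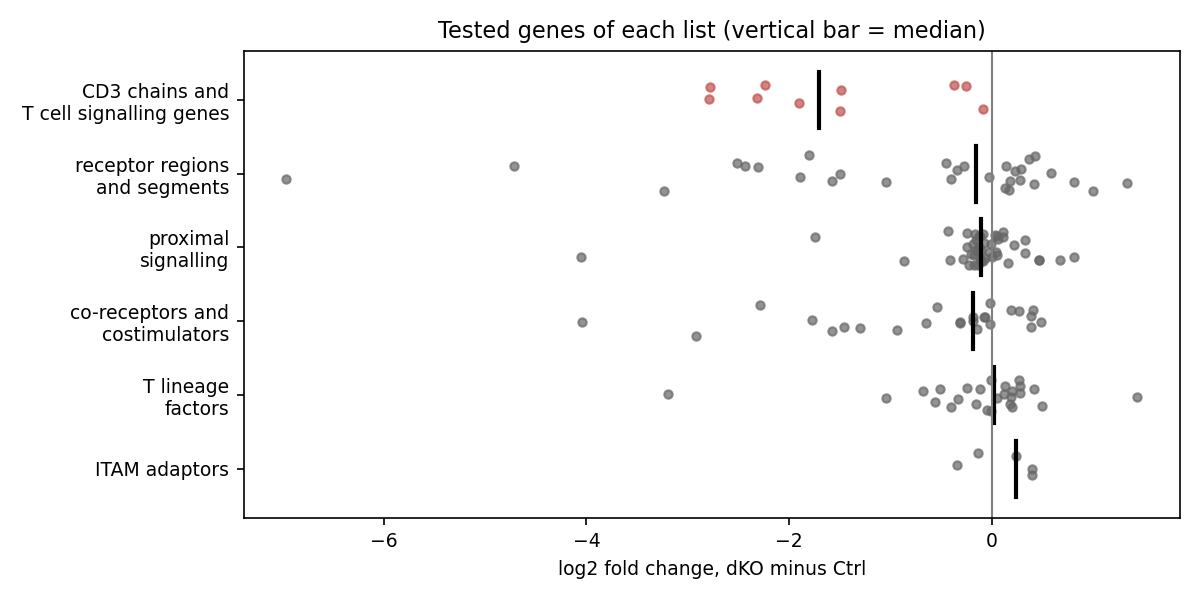
Log2 fold change, dKO minus Ctrl, of each tested gene in the 10 genes described here (red) and in the 5 lists of related genes (grey), with the median as a vertical bar. The median of the 10 genes is -1.70 and those of the lists lie between -0.19 and 0.24, with a tail of low-count genes at negative values.

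Markers of T cells were measured beside these genes. Of 12 markers of alpha-beta T cells, all tested, none was called in edgeR (4 at an unadjusted p under 0.05) or limma-voom, and Cd8a and Themis were called in DESeq2. The summed level of the 12 was 886 and 927 CPM in Ctrl, against 1008 and 868 in dKO, of which Trbc1 and Lef1 made up the largest parts. In 6 of them both dKO libraries lay below both Ctrl libraries, as in 19.9% of all genes tested. Cd8a was at 7.02 and 3.83 CPM in Ctrl, against 0.342 and 1.89 in dKO (log2 fold change of -2.28 with SE 0.74, edgeR adjusted p = 0.309). Cd40lg was at 3.44 and 1.39 CPM in Ctrl, against 0.529 and 0.0993 in dKO (adjusted p = 0.290). Cd4 (2.17, 7.503, 2.24 and 3.94 CPM), Cd28 (74.0, 91.5, 69.8 and 93.1 CPM) and Bcl11b (24.8, 14.9, 29.1 and 23.9 CPM) overlapped between the groups. The 6 markers below Ctrl in both dKO libraries were Cd8a, Cd8b1, Themis, Trat1, Cd40lg and Ubash3a. Of these Ubash3a was abundant (156, 169, 154 and 145 CPM) and the other 5 were at most 7.02 CPM in any library. The part of T cells in the lower CD3 values was not tested.

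**Figure D5:**
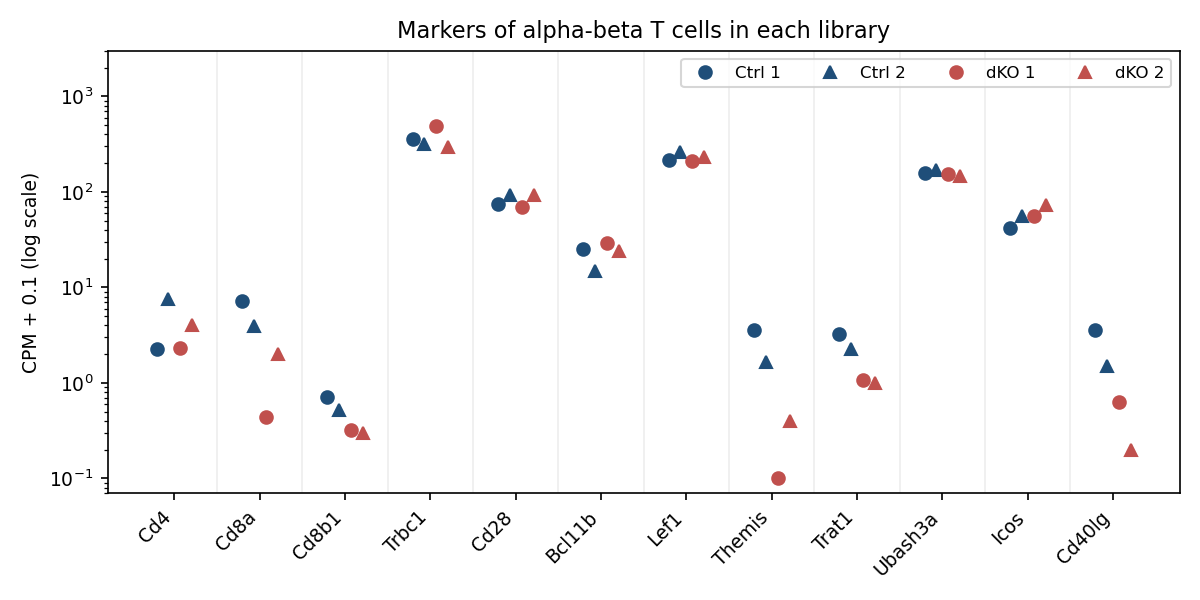
CPM plus 0.1 (log axis) of 12 markers of alpha-beta T cells, with 1 point per library, Ctrl in blue and dKO in red, circles for replicate 1 and triangles for replicate 2. Cd8a, Themis, Trat1 and Cd40lg are at most 7.02 CPM and lower in both dKO libraries, whereas Cd28, Lef1, Bcl11b and Trbc1 overlap between the groups.

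Markers of 11 other cell types gave no edgeR call, with 14 of them at an unadjusted p under 0.05, and no limma-voom call. Markers of gamma-delta T cells summed to 18.1 and 25.6 CPM in Ctrl and to 14.7 and 19.5 CPM in dKO. Il17a had 0 counts in every library, and Sox13, a factor of that lineage, had at most 1 count per library. Markers of NKT cells summed to 143, 189, 144 and 193 CPM, mostly from Cd28 and Icos, and the receptor gene Slamf1 was at no more than 0.436 CPM. Zbtb16 of that list was at 24.6 and 33.4 CPM in Ctrl, against 16.5 and 24.2 in dKO (edgeR adjusted p = 0.578). It was the 1 of 5 tested NKT markers with both dKO libraries below both Ctrl libraries. Markers of T cell progenitors summed to 11.5 and 18.3 CPM in Ctrl and to 6.32 and 7.51 CPM in dKO, with Ptcra at 0 counts throughout. Those of group 2 innate lymphoid cells summed to 279, 364, 364 and 348.5 CPM, with Il13 at 0. Gata3, at 220, 288, 291 and 259 CPM, made up most of that sum. The 12 NK markers summed to 18400 and 18256 CPM in Ctrl and to 15186 and 15174 CPM in dKO, with both Ctrl libraries above both dKO libraries. DESeq2 called Gzma among them, and limma-voom none. B lineage markers (116, 258, 111 and 144 CPM), neutrophil markers (2137, 2714, 1318 and 2153 CPM), monocyte markers (3335, 3640, 3718 and 4257 CPM), plasmacytoid dendritic cell markers (119, 186, 117 and 132 CPM), basophil markers (16.6, 27.2, 17.5 and 37.7 CPM) and erythroid markers (404, 585, 296 and 541 CPM) were each higher in replicate 2 than in replicate 1 of the same group. DESeq2 called Igll1, Elane and Spib among these lists, Dntt among the progenitor markers and none elsewhere. The neutrophil sum rests on Ngp and Ltf, and the monocyte sum on Ccr2 and Lyz2. The granule genes of immature myeloid cells went the other way in Ctrl, with Mpo at 348, 104, 59.7 and 55.5 CPM (edgeR adjusted p = 0.155) and Elane at 106, 39.4, 20.9 and 15.7 CPM (adjusted p = 0.112). Cd3e, Cd3d, Cd3g, Trac, Tcrg-C, Cd5 and Cd6 were higher in dKO 2 than in dKO 1, Tcrg-C only slightly (22.03 and 22.8 CPM). In Ctrl, Cd3d, Cd3g, Cd5 and Tcrg-C (134 and 89.1 CPM) were lower in replicate 2 and Cd3e, Trac and Cd6 higher. The part of these cells in the values was not tested.

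The genes whose pattern over the 4 libraries was nearest to the mean of the 10 were sought among 8156 other tested genes averaging 10 CPM or more, by Euclidean distance of centred log2 CPM. The nearest 5 were Mfap1b (distance 0.284), the chemokine receptor gene Cx3cr1 (0.289), 2210013O21Rik (0.299), Ikzf2, the gene of the transcription factor Helios (0.350), and the surface protein gene Ly6c2 (0.354). Cx3cr1 was at 36.2 and 36.2 CPM in Ctrl, against 10.8 and 12.3 in dKO. Ikzf2 was at 54.0 and 65.7 CPM in Ctrl, against 17.3 and 20.2 in dKO. Of the 10 genes themselves, Cd3d (0.148) and Cd3g (0.264) were the nearest to their mean, and Lat (1.70) and Cd6 (1.68) the farthest. These distances rank genes on the same contrast by which the 10 were chosen and carry no test.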

How the data were processed

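RNA was measured in 2 Ctrl and 2 dKO libraries of sorted bone marrow NK cells, made with the Smart-seq2 protocol per the labels' protocols. The submitters' processing notes list, without roles or order, the build mm9, DESeq2 1.32.0, HTSeq 0.6.1, RSEM 1.3.0, TopHat2 2.1.1, Trimmomatic 0.36 and FastQC 0.11.5. Parameters, annotation and strand setting are not stated there, so antisense and overlapping genes are uncertain. The count tables the authors deposited hold whole numbers for each gene. Per the file headers, the RSEM tables hold expected counts and TPM, which were used, and FPKM and lengths (other values, in bases), of which FPKM was not used. Rows that name no gene were left out: reads outside genes were 18.1% to 24.3% and ambiguous reads 2.20% to 2.34% per library.

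Over 13904 genes that passed the expressed-gene filter (minimum count 10), counts entered edgeR 4.0.16 (robust quasi-likelihood F test, TMM scaling, R 4.3.3), with Benjamini-Hochberg adjustment and a threshold of 0.05. SE was derived from the log2 fold change and the root of its F value. CPM are scaled by TMM library size. An exact permutation of 2 against 2 libraries cannot go below p = 0.333, and p-values measure the spread between these libraries, pooled across genes by edgeR. Alternatives were DESeq2 size factors, upper quartile scaling, library totals, no filter, a stricter filter (10 CPM in 2 libraries), DESeq2 1.42.0, limma-voom (limma 3.58.1), a fit that is not robust, rounded RSEM expected counts, a replicate block and leaving out each library. The 10 genes and all lists were chosen with earlier results of these data known. The rule for further names took the called genes of each list (at most 4) or otherwise the 2 with the smallest p, Cd247 and Zap70, the GABP and sex checks and the 5 genes nearest in pattern. Others were chosen after their values were seen. Positions and promoters are GRCm38, matched by Ensembl identifier or symbol, and do not refer to mm9.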

Additional observations from a re-analysis of the deposited data

How the results depend on the processing

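Under 14 alternatives 139 values of the 10 genes kept their sign, with the largest moves in Cd5 and Cd6 (-3.84 and -4.04 without dKO replicate 2), and 1 reversed: Lat had a log2 fold change of 0.13 without dKO replicate 2 (and of -0.36 without dKO replicate 1), and the cause was not tested. The 10 genes were picked with this contrast in view, so nothing is read from how many of them were called. The number called lower was 7 with no filter (1.30% of all genes) or DESeq2 (1.43%) and 6 with the replicate block (0.374%). With the stricter filter (0.747%), limma-voom (0.309%) or RSEM expected counts (0.469%) it was 5. It was 4 with library totals, where 45 of 13904 genes were called lower. It was 3 in the main fit (0.295%), with DESeq2 size factors (43 of 13904 genes), upper quartile scaling (42) or no robust option (41). These 3, Cd3e, Trac and Tcrg-C, were called in every fit of all 4 libraries. Over all genes the number called was 85, against 559 without the filter, 130 with the stricter filter and 396 with DESeq2, and 73 to 187 when a library was left out, the highest without Ctrl replicate 2. Called list genes were, without the filter, 3 of proximal signalling, 6 of co-receptors and 2 of T lineage factors, and with DESeq2 1 of receptor segments, 2 of proximal signalling and 5 of co-receptors, against 0 in each. When a library was left out they numbered 0 to 1 in proximal signalling (Themis without dKO replicate 2) and 0 to 1 in co-receptors (Lag3 without dKO replicate 2, Il7r without Ctrl replicate 1). The replicate block called 1 co-receptor gene, Lag3 (adjusted p = 0.0330), and 100 genes over all. Deviations of same-numbered libraries from their group means had a correlation of -0.05 over 13904 genes. With only 2 libraries per group this cannot tell whether the numbers pair the samples. The alternatives were also followed for the genes taken from the lists by smallest p, Cd247, Zap70, the GABP genes, Gm16603, Gm17004 and Amica1. None of these changed direction: 212 of their values kept the direction and side of the threshold, and 18 newly passed it. The remaining genes named in the text, Trbc1 and Cd4 among them, were not followed in this way. Scaling moved the median log2 fold change of all genes to 0.00 to 0.05. Depth limits Cd5 and Cd6, with as few as 37 and 27 counts in dKO 1, and the receptor variable segments.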
